A study of Mus musculus with 60 samples.

Results

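The genes described here are 10 transcription factor genes that cells switch on within minutes of a stimulus, or that pair with the products of such genes. They are Fos, Fosb, Fosl1 and Fosl2 of the FOS family, Jun, Junb and Jund of the JUN family, Atf3, Egr1 and Maff. They were taken by name, as the rows of both count tables whose Ensembl identifier maps to these symbols, 10 of 56980 gene identifiers. The list was drawn up with earlier results of these data known. All 10 passed the filter on low counts in both tables, so every member was tested.

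AP-1 is a dimer of basic leucine zipper proteins, in its classic form a FOS protein joined to a JUN protein. FOS proteins cannot pair with each other and need a JUN partner, while JUN proteins can also pair among themselves. ATF3 and the small MAF protein MAFF share the same kind of zipper, and EGR1 is a zinc finger protein whose gene responds to the same growth factor and stress signals. In fibroblasts, Fos, Fosb and Egr1 are the textbook serum response genes, whose transcripts appear and decay quickly, whereas Fosl1, Fosl2 and Jund are expressed for longer. AP-1 binds the regulatory regions of fibroblast genes and is known as a guard of the somatic state during reprogramming.

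The measurements were RNA sequencing read counts per gene in 60 libraries of cultured mouse fibroblasts, 3 libraries in each of 20 groups. In the reprogramming table (36 libraries), tail tip fibroblasts carrying a doxycycline-inducible Oct4, Klf4, Sox2 and c-Myc cassette were sampled before doxycycline (day 0) and after 2 or 4 days of 2 µg/ml doxycycline, each without VC or with VC, which is 50 µg/ml ascorbic acid and 3 µM CHIR99021, an inhibitor of the kinase GSK3. The D/KO cells, labelled 4FJ_ERCC1_(d/-), came from male mice of 8 weeks, and the WT cells, labelled 4FJ_(+/-)_OCT4-GFP, from female mice of 22 weeks. In the inhibitor table (24 libraries), ERCC1 d/- tail tip fibroblasts of a female line of 4 weeks, with no doxycycline stated, were left as controls (D/KO control) or treated for 3 days with 0.1 µM Repsox, 0.1 µM Vactosertib, 1 µM A83-01 or 1 µM DMH-1.

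The same table held ERCC1 +/+ cells of female mice of 14 weeks, from tail tip (WT control) and from skin (WT skin control), and 4FJ_(+/-)_OCT4-GFP cells of 22 weeks whose titles carry the word TGFB with no dose (WT 4F TGFB). The last group has no untreated partner of its line in that table, so it entered no comparison. ERCC1 is a subunit of a DNA repair nuclease, and the d allele makes a truncated protein beside a null allele. Repsox, Vactosertib and A83-01 inhibit the TGFb type I receptor ALK5, and DMH-1 inhibits BMP type I receptors. Genotype, sex, age and line change together between D/KO and WT reprogramming cells, and genotype and age between the control lines, so they cannot be told apart. For the ERCC1 reprogramming line the authors describe an rtTA allele at ROSA26 beside the cassette, and for the OCT4-GFP line they name none. Doxycycline itself and the 4 factors came together, and the level of the factors was not compared between the lines. The labels do not say that the 3 libraries of a group came from separate cultures or animals, so p-values measure only the spread between these libraries, which may be technical.

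Levels are counts per 1000000 reads (CPM) after TMM scaling within a table, given as mean ± SD of 3 libraries, and levels of different genes are compared only per kilobase of the deposited gene length. The tables were scaled separately and are not tested against each other. A gene is called where edgeR's quasi-likelihood test gives a Benjamini-Hochberg adjusted p under 0.05 over all genes tested, 15832 in the reprogramming table, 15164 in the 18 inhibitor libraries compared and 15652 in the fit of 24 libraries. Fold changes are log2 with their standard error (SE). The libraries of a group are numbered 1 to 3 in accession order, which names them and pairs nothing.

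Each reprogramming library held between 16538374 and 18484951 counts and each inhibitor library between 17102639 and 30599138. Ercc1 read 8.04 to 18.6 CPM in the 18 D/KO and 16.9 to 29.1 CPM in the 18 WT reprogramming libraries. In the inhibitor table its ranges, 13.2 to 23.5 CPM in D/KO and 13.3 to 47.8 CPM in WT libraries, overlapped. All 8 fibroblast markers looked at (Col1a1, Col1a2, Pdgfra, Pdgfrb, Thy1, Vim, Dcn and Lum) had at least 1 CPM in every library. Endothelial markers (Pecam1, Cdh5 and Kdr) summed to 101 to 567 CPM in D/KO and 0.153 to 1.54 CPM in WT reprogramming libraries, so the lines also differ in these transcripts. Because the RNA is from bulk cultures, fewer cells of a type and less RNA per cell cannot be told apart.

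Some libraries stood apart in the members. In all 6 D/KO reprogramming groups, the library with the last serial number in the labels was the lowest of 3 in Fos, Fosb and Egr1. Its level was 0.323 to 0.601 of the mean of the other two libraries for Fos, 0.195 to 0.346 for Fosb and 0.639 to 0.8 for Egr1. In WT cells the last library was the lowest in Fos in 3 of 6 groups and the highest in the other 3. The labels give no batch, so every comparison with D/KO reprogramming cells was also fitted without these 6 libraries, and calls of members lost or gained there are given beside the result. In the inhibitor table, a library each of WT skin control and Repsox had more of its counts in genes under 1500 bases, 9.31% and 7.65% against a median of 4.67% over 24 libraries. Jund, whose transcript is short, followed that share, and Fosl2, whose transcript is long, ran against it. As deviations from the group means over these 24 libraries, Pearson's r with the log2 ratio of counts in short to long genes (over 5000 bases) was 0.92 for Jund and -0.91 for Fosl2, and over the 36 reprogramming libraries 0.52 and -0.44. In the inhibitor table it was also -0.81 for Fosl1, -0.62 for Fosb, 0.60 for Maff and 0.59 for Junb, and over the reprogramming libraries 0.36 for Maff. These correlations only describe libraries that share their groups. The counts of Fosl2 and Fosb are part of the ratio, and those of Jund, at 1667 bases, are not.

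**Figure D1:**
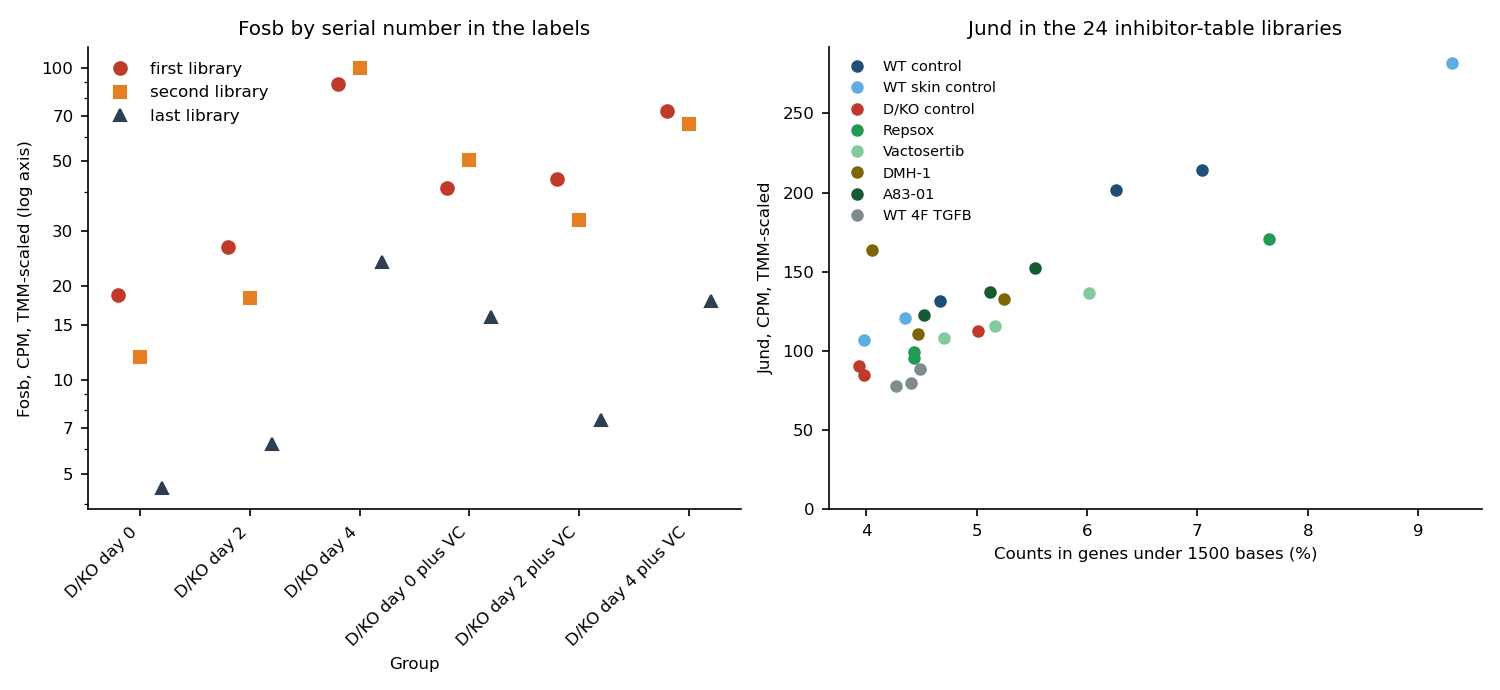
Left, Fosb in CPM (log axis) in the 3 libraries of each D/KO reprogramming group, with symbols for the order of their serial numbers, the last library (triangles) being the lowest in all 6 groups, from 4.48 CPM at day 0 to 23.8 CPM at day 4. Right, Jund in CPM against the percentage of counts in genes under 1500 bases in the 24 libraries of the inhibitor table, coloured by group, with the first WT skin control library at 9.31% and 282 CPM.

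Before the values, the promoter stretches that carry letters of the known control elements are shown, to place the members that respond through the serum response factor (SRF) beside those with an AP-1 or ATF element. The 500 bases before the start of each gene's canonical GENCODE M39 transcript (GRCm39) were searched on both strands for the CArG box bound by SRF, for TGACTCA, TGACGTCA and TGACATCA bound by AP-1 and ATF dimers, and for GCGTGGGCG bound by EGR1. Each sequence is written along the gene's own strand with the match in capitals and 40 bases on each side, or up to the start of transcription.
Fos, chr12:85520315-85520404, plus strand: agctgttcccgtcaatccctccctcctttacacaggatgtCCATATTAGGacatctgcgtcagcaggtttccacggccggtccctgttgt
Fosb, chr7:19044193-19044282, minus strand: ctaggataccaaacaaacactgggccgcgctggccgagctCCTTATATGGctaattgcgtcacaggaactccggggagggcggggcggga
Jun, chr4:94940460-94940544, minus strand: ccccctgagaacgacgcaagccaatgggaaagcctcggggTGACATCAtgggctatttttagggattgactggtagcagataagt
Jund, chr8:71151345-71151432, plus strand: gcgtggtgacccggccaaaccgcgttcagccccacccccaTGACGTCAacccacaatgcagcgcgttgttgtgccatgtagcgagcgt
Maff, chr15:79231592-79231719, plus strand: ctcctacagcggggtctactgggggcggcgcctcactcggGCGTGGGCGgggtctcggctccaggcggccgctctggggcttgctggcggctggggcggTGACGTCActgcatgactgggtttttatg

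The capitals mark a CArG box 303 to 294 bases before the start of Fos and 266 to 257 bases before that of Fosb, a TGACATCA 45 to 38 bases before Jun, a TGACGTCA 214 to 207 bases before Jund, and in Maff a GCGTGGGCG 88 to 80 and a TGACGTCA 29 to 22 bases before the start. Of 21770 promoters of protein-coding genes, 2.76% hold a CArG box in such a window, 7.57% TGACTCA, 1.96% TGACGTCA, 3.72% TGACATCA and 0.73% GCGTGGGCG. Fosl1, Fosl2, Junb and Atf3 held none of these letters in the window, which says nothing of elements outside it or with other letters. The window of Egr1 is not reported here. As deposited (GRCm39), Fosl1 lies at chr19:5497575-5505974, Fosl2 at chr5:32293145-32315186, Junb at chr8:85701113-85705347 and Atf3 at chr1:190902493-190950236, and Jun and Jund have a single exon. A match is a run of letters, and binding was not measured here.

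The first comparison set the starting cells side by side, since day 0 is the baseline of every later change. D/KO cells at day 0 held the lowest mean level of Fos, Fosb, Egr1 and Junb among the 12 reprogramming groups. Against WT day 0, 4 members were lower and 3 higher in D/KO cells, in a comparison that called 43.2% of all genes tested, 21.1% as lower and 22.1% as higher. Fos stood at 60.3, 49.9 and 17.8 CPM in the D/KO libraries and at 180, 220 and 255 CPM in the WT libraries. The groups did not overlap, and the level was 5.12-fold lower in D/KO cells (log2 -2.36, SE 0.35, adjusted p = 1.14e-06). Fosb was 5.89-fold lower (log2 -2.56, SE 0.55, adjusted p = 0.000299), at 18.7, 11.8 and 4.48 CPM against 76.1, 54.1 and 74.8 CPM. Egr1 was 3.36-fold lower (log2 -1.75, SE 0.19, adjusted p = 3.17e-09), at 129, 179 and 119 CPM against 425, 446 and 567 CPM. Junb, which can antagonise Jun, was 1.91-fold lower (log2 -0.94, adjusted p = 0.000205). For all 4 genes every D/KO library lay below every WT library.

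The members that were higher in D/KO cells at day 0 included the longer-lived FOS and JUN members Fosl2 and Jund. Fosl2, also called Fra-2, stood at 348, 393 and 416 CPM against 236, 200 and 202 CPM (log2 0.86, SE 0.11, adjusted p = 1.03e-07). Jund, the JUN gene expressed in resting cells, was 1.71-fold higher (log2 0.77, adjusted p = 0.000461). Atf3, a stress-induced factor that often represses, was 2.21-fold higher (log2 1.14, adjusted p = 0.00337), though it was scarce in both genotypes at 5.56 ± 0.265 and 2.52 ± 0.59 CPM. Jun and Maff differed by -0.03 and 0.01, and Fosl1 (Fra-1) by 0.32, all with overlapping libraries and none of them called. Endothelial markers summed to 484 to 567 CPM in these D/KO libraries and to at most 1.54 CPM in WT, and their part in the differences was not tested. All 7 calls were also made without the 6 D/KO libraries named above, where Fos differed by -1.99 and Fosb by -2.17.

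Without VC, Fos rose in D/KO cells as the factors were induced. It stood at 60.3, 49.9 and 17.8 CPM at day 0, at 230, 226 and 106 CPM at day 2 and at 530, 598 and 287 CPM at day 4. The libraries of the 3 days did not overlap. The rise was 4.4-fold by day 2 (log2 2.14, SE 0.35, adjusted p = 8.16e-06) and 11.1-fold by day 4 (log2 3.47, SE 0.36, adjusted p = 6.62e-10), measured against the same 3 day 0 libraries. Of the 10 members, 4 were called at day 2, where 27.4% of all genes were, and 8 at day 4 (5 higher and 3 lower), where 37% were, 18.3% higher and 18.7% lower. In WT cells Fos stood at 176 to 279 CPM at day 2 and at 185 to 219 CPM at day 4, overlapping the 180 to 255 CPM of day 0 (log2 0.09 and -0.13, adjusted p = 0.918 and 0.826).

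The difference between the genotypes in the change was itself tested. The D/KO change in Fos exceeded the WT change by 2.05 on the log2 scale at day 2 (SE 0.47, adjusted p = 0.00489) and by 3.59 at day 4 (SE 0.48, adjusted p = 1.12e-06), in comparisons that called 6.54% and 14.3% of all genes. The D/KO baseline that enters this difference was itself low in Fos, and these comparisons share its 3 libraries. Without the 6 D/KO libraries that stood apart, the D/KO rise in Fos was 2.05 at day 2 and 3.35 at day 4, and the genotype difference 1.96 and 3.48. Over the same interval, in D/KO cells, the sum of the endothelial markers went from 484 to 567 CPM at day 0 to 188 to 204 CPM at day 4. The fibroblast markers went from 71540 to 99296 CPM to 29392 to 33143 CPM, and the keratinocyte markers (led by Krt14) from 0.118 to 0.352 CPM to 39.4 to 55.1 CPM. The part of these shifts in the result was not tested.

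**Figure D2:**
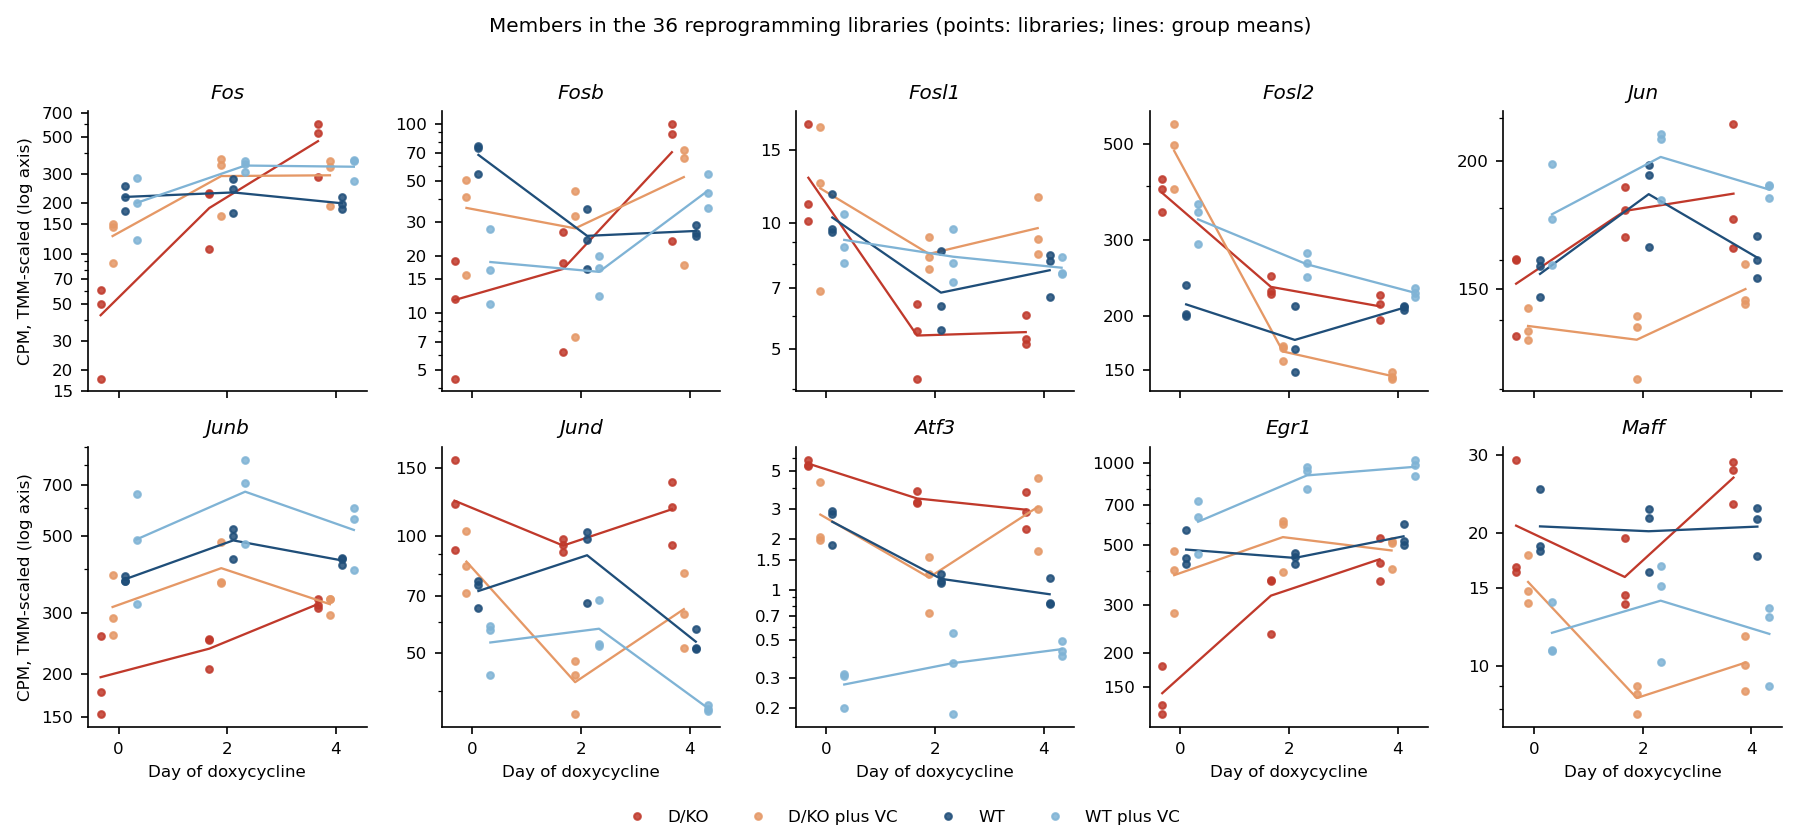
Level of each of the 10 genes in the reprogramming table, in CPM on a log axis, against the day of doxycycline, in 4 arms (D/KO and WT, each without and with VC). Points are libraries and lines join the means of 3 libraries. Fos in D/KO cells without VC climbs from a mean of 42.7 CPM at day 0 to 472 CPM at day 4, while the WT arm without VC stays between 200 and 232 CPM.

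Fosb and Egr1 went the same way in D/KO cells. Fosb, a FOS protein with a long and a truncated form, stood at 88.4, 99.6 and 23.8 CPM at day 4. That was 6.09-fold above its 4.48 to 18.7 CPM at day 0 (log2 2.61, SE 0.55, adjusted p = 0.000234), with its lowest library just above the highest of day 0. At day 2 it stood at 26.6, 18.3 and 6.22 CPM, overlapping day 0 (log2 0.55, adjusted p = 0.513). In WT cells Fosb had means of 68.3, 25.5 and 27.1 CPM at days 0, 2 and 4, and the differences of -1.42 and -1.34 from day 0 were not called (adjusted p = 0.0739 and 0.0548). The genotype difference at day 4 was 3.94 (SE 0.76, adjusted p = 0.000283). Without the 6 D/KO libraries the D/KO rise at day 4 was 2.63, and the genotype difference at day 2 was called (1.99, adjusted p = 0.00137, against 1.98 and 0.125 with them).

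Egr1, a zinc finger activator and a standard reporter of ERK signalling, stood at 371, 368 and 236 CPM at day 2 and at 530, 428 and 367 CPM at day 4 in D/KO cells. All 6 libraries lay above the 119 to 179 CPM of day 0. The rise was 2.28-fold (log2 1.19, SE 0.19, adjusted p = 6.61e-06) and 3.1-fold (log2 1.63, SE 0.19, adjusted p = 9.25e-09). In WT cells Egr1 kept means of 479, 447 and 536 CPM over the 3 days with no call, and the genotype difference was 1.29 at day 2 (adjusted p = 0.00159) and 1.47 at day 4 (adjusted p = 0.000129). Its D/KO mean at day 4, 442 ± 82.3 CPM, was close to the lowest WT mean without VC, 447 CPM at day 2. Without the 6 libraries the D/KO rises were 1.26 and 1.63.

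Fosl1 and Fosl2 moved opposite to Fos in D/KO cells without VC. Fosl2 stood at 348, 393 and 416 CPM at day 0, at 228, 224 and 248 CPM at day 2 and at 223, 195 and 213 CPM at day 4. Every later library lay below day 0, and the fall was 0.72 and 0.87 on the log2 scale (adjusted p = 3.43e-06 and 5.29e-08). Fosl1 was much scarcer and fell 2.39-fold by day 2 (log2 -1.26, SE 0.23, adjusted p = 4.97e-05), from 10.1, 11.1 and 17.3 CPM to 6.38, 4.24 and 5.51 CPM. It was as low at day 4, at 5.12 to 6.03 CPM (log2 -1.23, adjusted p = 3.67e-05). In WT cells without VC neither gene was called, with Fosl2 means of 213, 176 and 209 CPM. The genotype difference for Fosl2 at day 4 was -0.85 (SE 0.16, adjusted p = 0.000187), and for Fosl1 no genotype difference was called at any day. Without the 6 libraries the D/KO falls at days 2 and 4 were called for both genes, at -0.71 and -0.82 for Fosl2 and at -0.93 for Fosl1 at day 4.

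These opposite moves changed which FOS gene made up most of the family. Per kilobase of gene length, Fosl2 took 60.7% ± 10.3 of the summed FOS family level in D/KO cells at day 0 and Fos 26.7% ± 12.6. At day 4 the order was the other way round, with Fos at 84.3% ± 2.89 and Fosl2 at 10.1%. The family sum was 66.2 ± 5.57 CPM per kilobase at day 0 and 236 ± 75.7 at day 4. WT cells had Fos in front from the start, at 70.7% ± 5.42 at day 0 and 74.1% at day 4. In both tables the untreated D/KO cells had Fosl2 as the leading FOS gene, since the D/KO control of the inhibitor table stood at 61.4% Fosl2 and 28.2% Fos. Fosl2 also led in WT skin control (68.6%) and WT 4F TGFB (54.9%), so this order was not particular to D/KO cells. The shares are a description and were not tested.

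**Figure D3:**
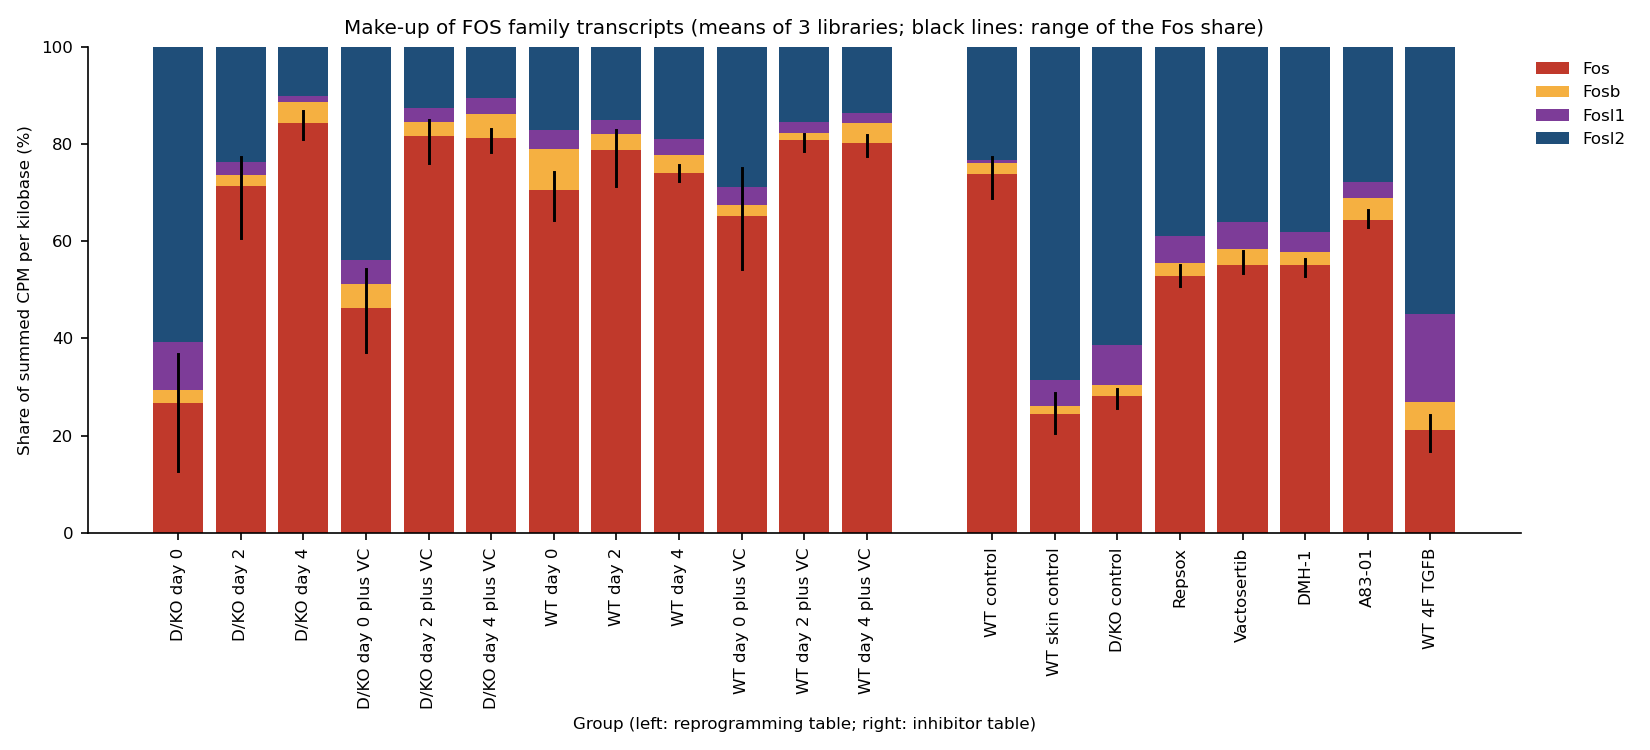
Mean share (%) of Fos, Fosb, Fosl1 and Fosl2 in the summed FOS family level, per kilobase of gene length, in the 20 groups of 3 libraries. Black lines give the range of the Fos share over the libraries. Fosl2 is the largest share in D/KO day 0 (60.7%), D/KO control (61.4%), WT skin control (68.6%) and WT 4F TGFB (54.9%), and Fos is the largest in the other groups.

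The called changes of JUN genes in D/KO cells without VC were rises of Junb and Jun at day 4. Junb in D/KO cells without VC stood at 257, 177 and 153 CPM at day 0 and at 315, 309 and 329 CPM at day 4, a 1.63-fold rise (log2 0.70, SE 0.20, adjusted p = 0.00422) that was not called without the 6 libraries (0.52, adjusted p = 0.0893). Jun, the partner of Fos in the classic dimer, rose 1.22-fold by day 4 (log2 0.29, SE 0.10, adjusted p = 0.0193), from 160, 135 and 160 to 165, 176 and 217 CPM. That call was also absent without the 6 libraries (0.20, adjusted p = 0.178) or without D/KO day 0 library 2 (0.21) or day 4 library 3 alone (0.17), while without the 6 libraries Jun was called at day 2 (0.31, adjusted p = 0.0451, against 0.24 and 0.0772 with them). Over all 12 groups the highest mean of Jun was 1.51 times the lowest, against 11 times for Fos, so Jun was the steadiest member by this ratio. Jund differed from day 0 by -0.38 and -0.07 at days 2 and 4, overlapping and not called. In WT cells without VC no JUN gene was called against day 0, in comparisons that called 10.6% of all genes at day 2 and 24.5% at day 4 (11.7% higher and 12.8% lower), although Jund fell from day 2 to day 4 (log2 -0.74, adjusted p = 0.00315, and 0.068 with the short-to-long gene ratio as a covariate). Per kilobase, Junb was the leading JUN gene in all 12 groups, with 40.9% of the family at D/KO day 0 and at most 74.3% among WT groups.

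Atf3 and Maff are partners from outside the FOS and JUN families. Atf3 fell in both genotypes. In D/KO cells it went from 5.87, 5.4 and 5.42 CPM at day 0 to 2.88, 3.76 and 2.27 CPM at day 4 (log2 -0.90, SE 0.31, adjusted p = 0.0198), and in WT cells from 2.82, 2.9 and 1.84 CPM to 0.819, 1.17 and 0.828 CPM (log2 -1.42, SE 0.35, adjusted p = 0.00278). Neither pair of groups overlapped, but the D/KO call was absent without the 6 libraries (-0.76, adjusted p = 0.0863), and without D/KO day 0 library 1 (-0.86) or day 4 library 1 (-0.88) or 3 (-0.74). The WT fall at day 2 (log2 -1.12, adjusted p = 0.0306) was called only with all 6 libraries or without WT day 0 library 3, the highest adjusted p being 0.114. In the fit of 36 libraries no other member was called in WT cells without VC at either day, but with only the groups compared 3 members were called at day 2 and 5 at day 4, and with no filter 4 and 3. Maff, a small MAF protein with no activation domain of its own, differed by -0.38 and 0.36 in D/KO cells at days 2 and 4 and was not called there, with means of 20.7, 15.9 and 26.6 CPM. Without the 6 libraries the day 4 difference was 0.63 and called (adjusted p = 0.0208). It rose from day 2 to day 4 (log2 0.74, SE 0.20, adjusted p = 0.0113), a comparison that called 9.57% of all genes and also called Fos (1.33) and Fosb (2.05). Without D/KO day 2 library 3 the Fos and Fosb differences were 1.05 and 1.65 and not called (adjusted p = 0.075 and 0.0851). Fosb was also not called without day 4 library 2 (1.72), nor Maff without day 2 library 1 (0.65) or 2 (0.68).

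**Figure D4:**
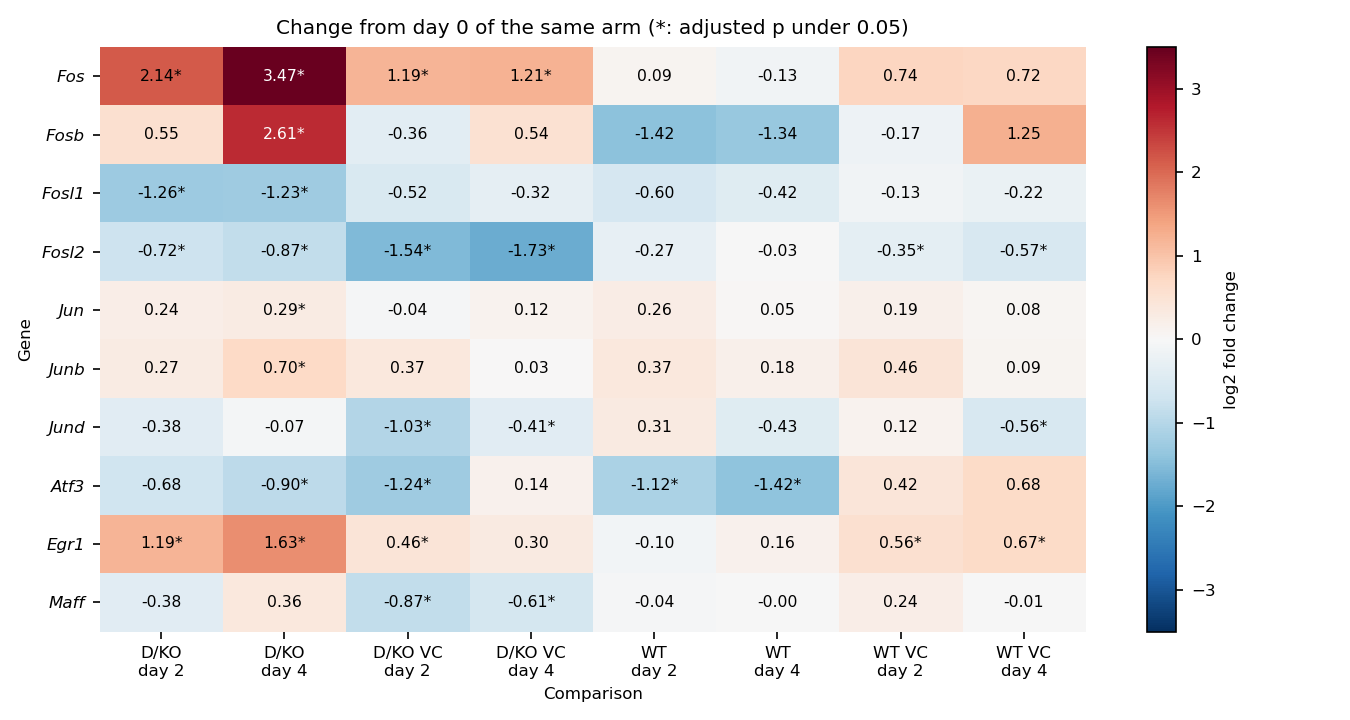
Heat map of log2 fold changes from day 0 of the same arm for the 10 genes (rows) in 8 comparisons (columns), with red for higher and blue for lower and an asterisk where the adjusted p was under 0.05. The D/KO columns without VC hold the largest values, up to 3.47 for Fos, and the WT columns without VC hold an asterisk only for Atf3.

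The next comparison was VC itself, before and during induction. At day 0, with no doxycycline, Fos and Egr1 were higher with VC in D/KO cells. Fos stood at 150, 144 and 88.3 CPM with VC against 60.3, 49.9 and 17.8 CPM without (log2 1.58, SE 0.34, adjusted p = 0.000551), and the groups did not overlap. Egr1 rose 2.71-fold to 402, 475 and 281 CPM (log2 1.44, SE 0.19, adjusted p = 2.77e-07). In all, 5 members rose and 2 fell (Atf3 and Jund), beside 26.1% of all genes called, 12.1% higher and 14% lower. Of those 7 calls, Fos and Egr1 were made whichever of the 6 libraries was left out. Each of the others (Fosb, Fosl2, Junb, Jund and Atf3) was lost without at least 2 of the 6 in turn, and the number of members called was then 4 or 5. Without the 6 libraries together, 3 were called, Fos (1.41), Egr1 (1.51) and Fosb (1.59). In the same comparison the endothelial markers summed to 484 to 567 CPM without VC and 170 to 209 CPM with it, and the fibroblast markers to 71540 to 99296 and 163202 to 234099 CPM, and their part in the result was not tested.

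In WT cells the same treatment at day 0 left Fos at 282, 200 and 121 CPM, around the 180 to 255 CPM without VC. There Fosb fell 3.68-fold (log2 -1.88, SE 0.53, adjusted p = 0.00662), from 76.1, 54.1 and 74.8 CPM to 27.6, 16.9 and 11.1 CPM, and Atf3 was also called lower. Atf3 went from 36 to 54 reads a library to 3 to 5 reads, at 0.316, 0.307 and 0.199 CPM, under the filter of 0.577 CPM in every library with VC, so its fold is not given. The Fosb call was lost without WT day 0 VC library 3 (adjusted p = 0.0505). This comparison called 29.4% of all genes, and with it rose Fosl2 (log2 0.65) and fell Maff (log2 -0.80). Fibroblast markers summed to 39751 to 42088 CPM without VC and 140146 to 156259 CPM with it, and their part was not tested.

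During induction, VC lowered Jund in both genotypes at days 2 and 4. In D/KO cells Jund stood at 43.8, 47.7 and 34.8 CPM with VC at day 2 against 90.9, 98.2 and 94.7 CPM without (log2 -1.17, SE 0.18, adjusted p = 3.44e-06). The difference was -0.85 in D/KO cells at day 4, and -0.63 (overlapping) and -0.57 in WT cells at days 2 and 4. Within groups of this table Jund followed the short-to-long gene ratio most closely, with Fosl2 (-0.44) and Maff (0.36) after it. The share of counts in short genes was 4.83 to 5.28% without VC and 5.21 to 5.9% with it in D/KO cells at day 2, 4.47 to 5.99% and 5.19 to 6.37% at day 4, and in WT cells 4.01 to 5.63% and 4.36 to 5.04% at day 2 and 3.74 to 3.81% and 4.4 to 4.69% at day 4. With the short-to-long gene ratio as a covariate the 4 differences were -1.27, -1.01, -0.63 and -0.76, all called. The WT day 4 call was absent without library 3 of either group (adjusted p of up to 0.0724). Maff fell with VC at day 4 in D/KO cells, from 23.2, 27.7 and 28.9 CPM to 8.78, 11.7 and 10.1 CPM (log2 -1.39, SE 0.20, adjusted p = 1.33e-06), and in WT cells (log2 -0.80, adjusted p = 0.00307). Egr1 rose with VC in WT cells at day 2 (log2 1.01, adjusted p = 0.000106) and day 4 (log2 0.85, adjusted p = 0.000803), where its libraries reached 798 to 1024 CPM. Fosl2 was lower with VC in D/KO cells at both days (log2 -0.50 and -0.54) and higher in WT cells at day 2 (0.58), and Atf3 was lower at day 2 in D/KO cells (-1.55). In WT cells at day 2 Atf3 was called lower too, from 20 to 23 reads a library to 3 to 10 reads, all under the filter with VC, so no fold is given. In D/KO cells Fosl1 was higher (0.65 and 0.83) and Jun lower (-0.42 and -0.31) at both days, and Junb (0.77) and Egr1 (0.71) were higher and Maff lower (-0.91) at day 2. Of the D/KO calls, Fosl1 at day 2, Jun at day 4 and Egr1 at day 2 were each lost without at least 1 single library (adjusted p of up to 0.18, 0.174 and 0.0539). Without the 6 libraries Jun at day 4 was not called (-0.16, adjusted p = 0.294), and Fos was called higher at day 2 (0.63, adjusted p = 0.0439) and lower at day 4 (-0.71, adjusted p = 0.0142), from 0.64 and -0.68 with no call. The comparisons called 8 and 5 members in D/KO cells at days 2 and 4, and 4 and 3 in WT cells. VC called 25.3% and 34.5% of all genes in D/KO cells at days 2 and 4 and 26.6% and 22.4% in WT cells. The endothelial markers of D/KO cells summed to 319 to 388 CPM without VC and 101 to 123 CPM with it at day 2, and to 188 to 204 and 283 to 384 CPM at day 4. Keratinocyte markers summed to 11.7 to 19.8 and 102 to 121 CPM at day 2 and to 39.4 to 55.1 and 288 to 424 CPM at day 4, and in WT cells to at most 2.52 CPM without VC and 9.98 to 13.4 CPM with it. The part of these markers in the results was not tested.

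Against day 0 with VC, the FOS genes of D/KO cells again moved apart, but from other starting levels. Fos rose 2.29-fold at day 2 (log2 1.19, SE 0.33, adjusted p = 0.00326) and 2.31-fold at day 4 (log2 1.21, SE 0.33, adjusted p = 0.0024), to 366, 340 and 167 CPM and 329, 361 and 194 CPM. Fosl2 fell from 394, 497 and 557 CPM to 170, 157 and 168 CPM at day 2 and to 144, 143 and 148 CPM at day 4. The Fosl2 libraries did not overlap, and the falls of 2.92-fold and 3.32-fold had adjusted p of 8.33e-14 and 2.27e-15. These comparisons called 47.4% and 54.1% of all genes, and 6 and 4 members. At day 2 Jund (log2 -1.03), Atf3 (-1.24) and Maff (-0.87) fell and Egr1 rose (0.46), and at day 4 Jund (-0.41) and Maff (-0.61) fell. The Egr1, day 4 Jund and day 4 Maff calls were each lost without at least 2 single libraries in turn, and that of Atf3 without D/KO day 0 VC library 1 (-0.76, adjusted p = 0.101). The rises in Fos were not called with the short-to-long gene ratio of each library as a covariate, at 0.74 and 0.70 (adjusted p = 0.18 and 0.222). Nor was the day 2 rise in Egr1 (0.20, adjusted p = 0.542), and with this covariate 0 members were called higher at either day. Without the 6 libraries the rises in Fos were 1.27 and 1.23. In that fit Fosl1 was called at days 2 and 4 (-0.75 and -0.56, adjusted p = 0.00786 and 0.0366, against -0.52 and -0.32 with no call), and Jund (-0.40) and Maff (-0.49) were not called at day 4. Endothelial markers summed to 170 to 209, 101 to 123 and 283 to 384 CPM at the 3 days, and keratinocyte markers to 0.912 to 1.88, 102 to 121 and 288 to 424 CPM. Fibroblast markers summed to 163202 to 234099 CPM at day 0 and 27855 to 29905 CPM at day 4, and the part of these shifts was not tested.

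In WT cells with VC, Fosl2 fell less, by 0.35 at day 2 and 0.57 at day 4 on the log2 scale (adjusted p = 0.0173 and 7.87e-05). The genotype difference for Fosl2 was -1.20 at day 2 (SE 0.16, adjusted p = 1.14e-06) and -1.17 at day 4 (SE 0.16, adjusted p = 5.67e-07), in comparisons that called 13.9% and 29.4% of all genes. By day 2 Jund and Maff fell in D/KO cells and stood at 0.12 and 0.24 with no call in WT cells, and these genotype differences were -1.15 (adjusted p = 0.00128) and -1.11 (adjusted p = 0.00884). Egr1 rose in WT cells with VC, by 0.56 and 0.67, Jund fell by day 4 (log2 -0.56), and Fos differed by 0.74 and 0.72 with no call (adjusted p = 0.0918 and 0.0727). The day 2 calls of Fosl2 and Egr1 were each lost without 3 of 6 single libraries in turn (adjusted p of up to 0.104 and 0.161), and the Jund call without WT day 0 VC library 1 (0.0513). The WT comparisons with VC called 27.5% and 44.7% of all genes. Within VC, from day 2 to day 4, Atf3 (log2 1.38) and Jund (log2 0.62) rose in D/KO cells and Jund fell in WT cells (log2 -0.68), where 15.6% and 20.1% of all genes were called, against 21.5% in WT cells without VC. The Atf3 rise was 0.99 and not called without D/KO day 4 VC library 1 (adjusted p = 0.0768), and the Jund calls were lost without D/KO day 2 VC library 3, day 4 VC library 2 or WT day 2 VC library 1. Without the 6 libraries the D/KO Jund rise was not called (0.52, adjusted p = 0.114) and Fosb was (0.86, adjusted p = 0.045, against 0.90 and 0.284).

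The inhibitor table asked how the members of ERCC1 d/- fibroblasts respond to blocking TGFb or BMP receptors, with no induction of the factors stated. Fos rose with all 4 compounds. It stood at 35.8, 40.2 and 34.6 CPM in the D/KO control, at 95, 69.8 and 104 CPM with Repsox, at 93.5, 99.8 and 104 CPM with Vactosertib, at 88.1, 80 and 83.9 CPM with DMH-1 and at 165, 170 and 151 CPM with A83-01. Every treated library lay above every control library. The rises were 2.43-fold, 2.7-fold, 2.29-fold and 4.39-fold, with adjusted p from 1.28e-09 for A83-01 (log2 2.13, SE 0.12) to 6.04e-06 for DMH-1 (log2 1.19, SE 0.12). The 4 comparisons share the same 3 control libraries, and called 25.2%, 22.1%, 9.75% and 32.6% of all genes for Repsox, Vactosertib, DMH-1 and A83-01. For A83-01 that was 16.4% higher and 16.2% lower, and for DMH-1 5.96% higher and 3.79% lower. Of the 10 members they called 5, 5, 2 and 7, the number for DMH-1 moving between 1 and 8 with the settings of the fit.

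Egr1 rose with the 4 compounds too. It stood at 107, 122 and 110 CPM in the D/KO control and at 575, 646 and 499 CPM with A83-01, a 5.06-fold rise (log2 2.34, SE 0.18, adjusted p = 3.71e-08). With Repsox it stood at 336, 185 and 326 CPM (log2 1.32) and with Vactosertib at 245, 326 and 244 CPM (log2 1.27). With DMH-1 it stood at 179, 191 and 191 CPM (log2 0.73, SE 0.17, adjusted p = 0.0127), a call that was absent when all 24 libraries shared the fit or the first control library was left out (adjusted p of up to 0.0945). The lowest Repsox library is the one rich in short genes, and without it the Repsox rise in Egr1 was 1.54 and that in Fos 1.43.

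Fosb and Maff rose with the ALK5 inhibitors. Fosb stood at 31, 32.1 and 27.5 CPM with A83-01 against 9.07, 7.71 and 7.14 CPM in the control (log2 1.92, SE 0.26, adjusted p = 1.79e-05), and was called with Vactosertib (log2 0.99, adjusted p = 0.00979) and Repsox (log2 0.73, adjusted p = 0.0455). The Repsox libraries, at 17.3, 6.21 and 16.3 CPM, overlapped the control. Without library 2 the difference was 1.06 (adjusted p = 1.12e-05), and without any other single library of these groups it was not called (adjusted p of up to 0.198). Maff rose by 0.87, 0.73 and 1.15 with Repsox, Vactosertib and A83-01, from 20 to 22.6 CPM in the control to 30.8 to 50.6 CPM over the 9 treated libraries. With DMH-1 Maff had 15.4, 16.8 and 22.4 CPM and was not called.

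Jun fell with the same 3 compounds. It stood at 161, 155 and 162 CPM in the control and at 113, 106 and 109 CPM with Repsox (log2 -0.54, SE 0.09, adjusted p = 0.0002), with -0.41 for Vactosertib and -0.28 for A83-01, the last of which was lost without D/KO control library 1 or 3 or A83-01 library 3 (adjusted p of up to 0.103). The A83-01 call was also absent with no filter (adjusted p = 0.109) and when all 24 libraries shared the fit (0.0596). Junb rose with A83-01, to 428, 402 and 371 CPM from 215, 198 and 202 CPM (log2 0.96, SE 0.14, adjusted p = 4.67e-05). Atf3 also rose with A83-01, to 5.69, 6.95 and 7.69 CPM from 4.6, 4.15 and 4.13 CPM (log2 0.66, SE 0.16, adjusted p = 0.00385). With Repsox Atf3 stood at 5.75, 5.02 and 5.76 CPM, above every control library, and was not called (log2 0.36, adjusted p = 0.116). Fosl1, Fosl2 and Jund were called with none of the compounds, Fosl1 coming nearest with DMH-1 (log2 -0.75, adjusted p = 0.0509). The Fos share of the FOS family was 28.2% in the control, 52.8%, 55.2% and 55.1% with Repsox, Vactosertib and DMH-1, and 64.3% with A83-01.

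**Figure D5:**
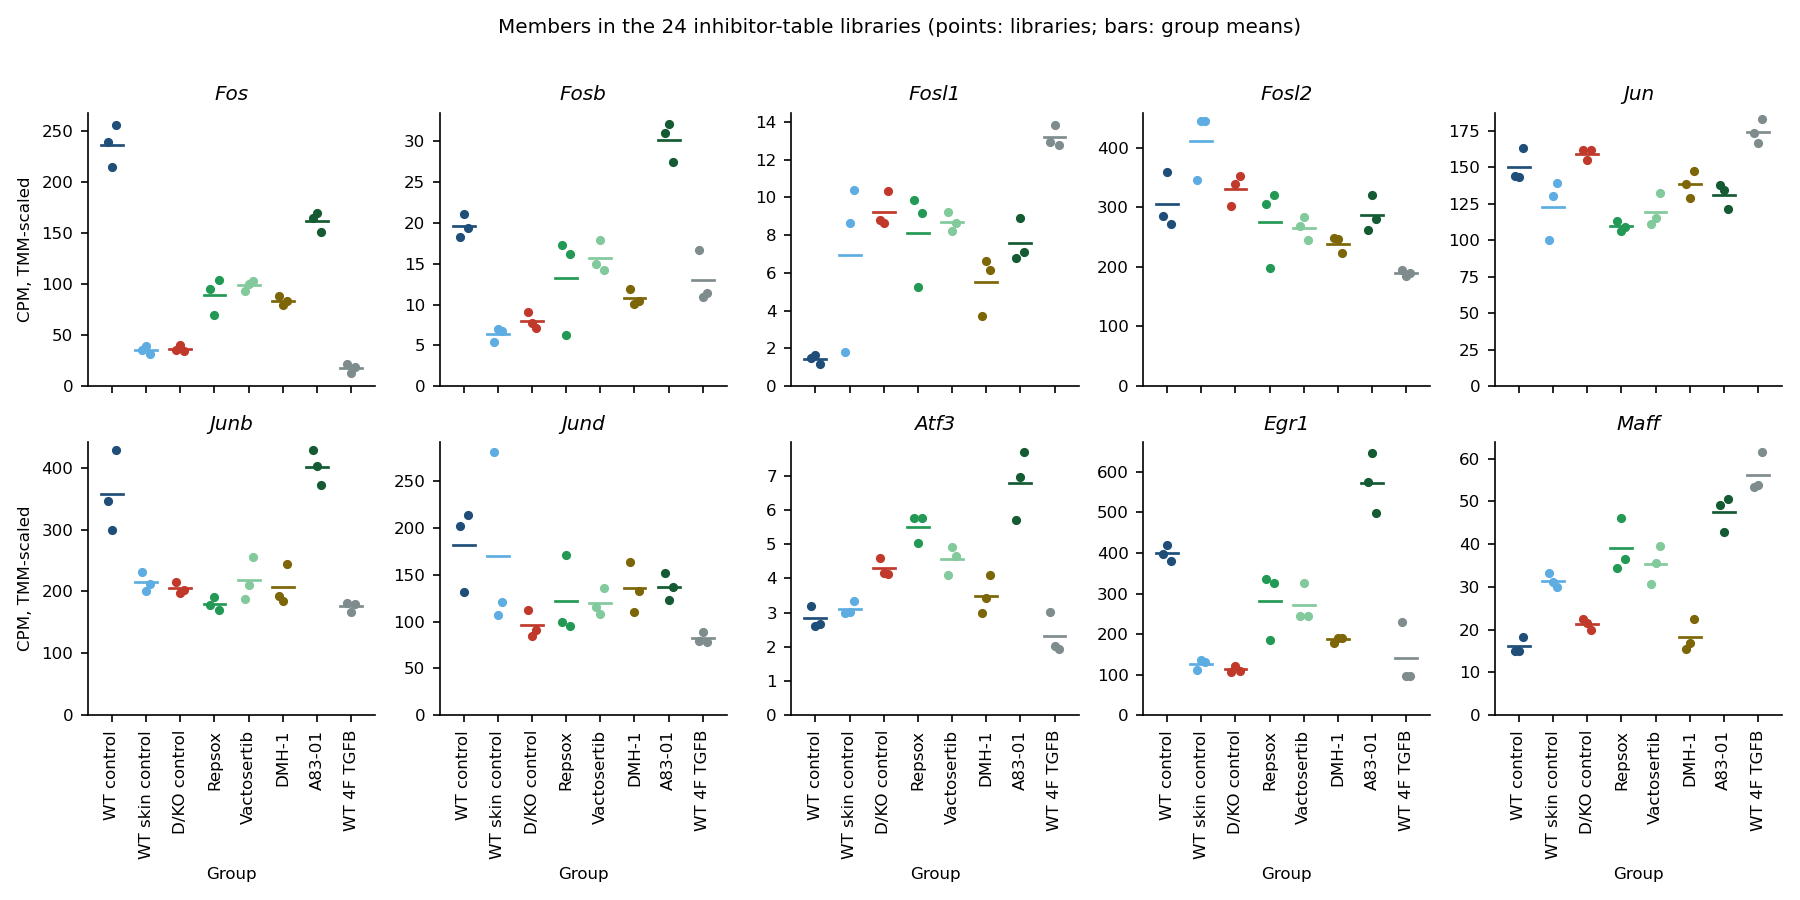
Level of each of the 10 genes in the inhibitor table in CPM (linear axis from 0) in 8 groups, with points for libraries and bars for means of 3 libraries. Fos and Egr1 are highest in WT control (237 CPM) and A83-01 (573 CPM) respectively, and every treated library lies above the D/KO control for both genes.

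Compounds were compared with each other only at the same dose, which gave 2 pairs. A83-01 and DMH-1, both at 1 µM, differed in 6 members, all higher with A83-01, where 25.4% of all genes were called, 11.9% higher and 13.4% lower. The differences were 0.94 for Fos, 1.48 for Fosb, 0.94 for Junb, 0.96 for Atf3, 1.61 for Egr1 and 1.38 for Maff, with adjusted p from 3.27e-06 to 0.000264. Fosl1, Fosl2, Jun and Jund were not called between them. Repsox and Vactosertib, both at 0.1 µM, differed in 0 of the 10 members by edgeR, the lowest unadjusted p being 0.055 for Junb. Over all genes edgeR called 0 of 15164, with 452 at an unadjusted p under 0.05, and DESeq2 called 8. The Repsox minus Vactosertib difference was -0.15 for Fos, with an interval of 2 SE from -0.39 to 0.08, and 0.04 for Egr1, from -0.30 to 0.39. Over the 10 members it ran from -0.29 for Junb (interval -0.57 to -0.01) to 0.26 for Atf3 (interval -0.05 to 0.58). Intervals of this width do not show that the 2 compounds act alike. A83-01 and Repsox were given at different doses and are not compared. Endothelial markers summed to 71.5 to 108 CPM with A83-01, 262 to 332 with DMH-1 and 223 to 271 in the control, and their part in the differences was not tested.

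Among untreated cells of that table, the WT tail tip control stood out with high Fos. It held 239, 215 and 256 CPM, against 35.8, 40.2 and 34.6 CPM in the D/KO control (log2 -2.67 for D/KO against WT, SE 0.13, adjusted p = 5.24e-11) and 35.5, 38.9 and 31.6 CPM in WT skin control (log2 -2.74 for skin against tail tip, SE 0.16, adjusted p = 5.07e-11). The D/KO and skin controls, which were not compared with each other, overlapped. Egr1 was also highest in the WT control, at 397, 419 and 381 CPM in the WT control, 107 to 122 CPM in the D/KO control and 112 to 137 CPM in skin (log2 -1.81 and -1.65). Fosb and Junb were lower in both as well. The comparisons, which share the 3 WT tail tip libraries, called 40.2% (21.3% higher and 18.9% lower) and 34.2% of all genes, and 8 members each.

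Fosl1 went the other way in both comparisons. It stood at 1.49, 1.63 and 1.15 CPM in the WT control, at 8.77, 8.63 and 10.3 CPM in the D/KO control (log2 2.70, SE 0.26, adjusted p = 2.92e-07) and at 1.79, 8.62 and 10.4 CPM in skin (log2 2.27, SE 0.41, adjusted p = 0.000193). The low skin library is the one rich in short genes, and without it the difference was 2.73. Maff was higher in both (log2 0.42 and 0.96), at 15.1 to 18.4 CPM in the WT control, although the smaller difference was called only with all 6 libraries or without WT control library 3 (adjusted p of up to 0.127). Jund was lower in the D/KO control (log2 -0.91, adjusted p = 0.00352), where the share of counts in short genes was 5.01, 3.98 and 3.93% against 6.26, 4.67 and 7.04% in the WT control. With the short-to-long gene ratio as a covariate the Jund difference was -0.49 and still called. Atf3 was higher in the D/KO control (log2 0.62, adjusted p = 0.0064). In skin, Fosl2 was higher (log2 0.43, adjusted p = 0.0317, overlapping) and Jun lower (log2 -0.29, adjusted p = 0.0451). Each of these was lost without 4 of the 6 libraries in turn, with adjusted p of up to 0.134 and 0.189. Endothelial markers summed to 24.6 to 37.7 CPM in the WT control, 223 to 271 in the D/KO control and 105 to 200 in skin. Muscle markers summed to 2.09 to 3.76, 10.2 to 12.6 and 57.4 to 84.1 CPM in that order, and keratinocyte markers to 11 to 13.5, 0.17 to 0.708 and 1.56 to 1.95 CPM. The part of these markers was not tested.

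The lists of neighbouring genes in the pathway are described by their counts, beside a median over all genes tested that lay between -0.02 and 0.03 in every comparison. Among 24 other immediate early genes, 8 rose and 9 fell in D/KO cells at day 4 without VC, with a median of 0.07, where 18.3% of all genes were higher and 18.7% lower. Zfp36, which encodes an RNA-destabilising protein, rose by 2.46 (SE 0.24, adjusted p = 7e-11), from 64.7 ± 8.44 to 357 ± 94.2 CPM, and Dusp1, a phosphatase of MAP kinases, by 2.14. Klf2, a flow- and quiescence-related factor, fell by 2.42. In WT cells at that time point 4 rose and 9 fell, among the latter Klf2 (log2 -2.30) and Sgk1 (log2 -1.47), with Klf10 up (log2 1.76), where 11.7% of all genes were higher and 12.8% lower. With A83-01, 14 of 23 rose and 4 fell, with a median of 0.68, beside 16.4% and 16.2% of all genes. They included Arc (log2 3.51, 0.817 to 9.25 CPM), Nr4a3 (2.86) and Nr4a1 (2.66), the last pair encoding orphan nuclear receptors. With DMH-1, 5 rose and 5 fell, beside 5.96% and 3.79% of all genes. At day 0, 12 of 24 were lower and 4 higher in D/KO than in WT cells, led by Arc (-2.51), Egr2 (-2.06) and Nr4a1 (-1.84), beside 21.1% and 22.1% of all genes.

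The other bZIP partners moved in both directions. In D/KO cells at day 4, 3 of 8 tested rose and 3 fell, led by Jdp2 (log2 -0.78), a repressor that pairs with JUN proteins, Mafk (0.68) and Mafg (-0.67), beside 18.3% and 18.7% of all genes. In D/KO cells at day 4 with VC, Maf fell by 2.09 and Jdp2 by 1.64. With A83-01, 3 of 8 rose, among them the large MAF gene Maf (1.18) and Mafk (0.81), beside 16.4% of all genes. With Repsox, Mafk rose by 0.73 and Maf by 0.69, and with Vactosertib by 0.64 and 0.57. In skin, Jdp2 (-0.84) and Maf (-0.58) were lower than in tail tip.

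Upstream, the genes of SRF, its cofactors and the MAP kinases also moved in both directions. Of 16, 3 rose and 5 fell in D/KO cells at day 4, led by Map2k1 (log2 -0.85), Elk3 (-0.82), an SRF partner that can repress Fos, and Mrtfa (-0.68). Of all genes, 18.3% were higher and 18.7% lower there, 16.4% and 16.2% with A83-01 and 5.96% and 3.79% with DMH-1. With A83-01, 5 rose and 4 fell, among them Elk3 (-0.98). The ERK feedback genes, phosphatases, Sprouty proteins and ETS factors that rise with ERK activity, had 5 higher and 2 lower of 12 in D/KO cells at day 4, led by Etv1 (1.71), Etv4 (-1.58) and Dusp4 (1.49). With VC at that day, 7 rose and 1 fell, with a median of 0.72, where 54.1% of all genes were called. With A83-01, 4 rose and 1 fell, and with DMH-1, 3 rose and 1 fell, where Spry2 rose by 1.17 and Spry1 by 0.97. Spry4 (2.51) and Etv5 (1.87) led the 7 of 12 that were higher in the D/KO control than in the WT control, where 21.3% of all genes were.

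Genes known as AP-1 targets were counted first in comparisons where Fos was called higher. In D/KO cells without VC, 2 of 15 rose and 7 fell at day 2, with a median of -0.65, where 27.4% of all genes were called. At day 4, 2 rose and 9 fell, with a median of -0.94, where 18.3% of all genes were higher and 18.7% lower. With VC it was 3 and 10 at day 2 and 4 and 9 at day 4, with medians of -0.78 and -0.82, where 47.4% and 54.1% of all genes were called. From day 2 to day 4 without VC, 2 rose and 4 fell, with a median of 0.16, where 9.57% of all genes were called. VC at day 0 gave 4 higher and 6 lower, with a median of -0.37, beside 12.1% and 14% of all genes. At day 4 without VC, Plau, the urokinase gene, fell by 1.68 (SE 0.11, adjusted p = 1.39e-14), while Ccnd1, the cyclin D1 gene, rose by 2.09. With A83-01, 1 of 16 rose and 10 fell, with a median of -0.80, where 16.4% of all genes were higher and 16.2% lower. Mmp13, a collagenase with a classic AP-1 site, fell by 7.41, from 2669 to 3546 reads a control library to 16 to 37 reads, and Ptgs2 and Mmp3 fell by 2.83 and 2.82. Repsox and Vactosertib each had 2 higher and 8 lower, where 25.2% and 22.1% of all genes were called. DMH-1 had 2 higher and 4 lower, among the latter Ptgs2 (-1.62) and Hbegf (-0.98), beside 5.96% and 3.79% of all genes.

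Fos was called lower in 3 comparisons between untreated cells, and the AP-1 targets stood as follows there. Of 16, 12 were higher and 2 lower in the D/KO control than in the WT control, with a median of 1.64 and Mmp3 at 3.71, where 21.3% of all genes were higher and 18.9% lower. In the WT control Mmp13 had only 1 to 5 reads a library. In skin against tail tip, 12 were higher and 3 lower, with a median of 1.66 and Ptgs2 at 3.83, where 34.2% of all genes were called. Among reprogramming cells at day 0, 8 of 15 were higher and 1 lower in D/KO than in WT cells, with a median of 0.64, led by Mmp3 (2.19), Plau (2.15) and Mmp13 (1.90), where 22.1% of all genes were higher and 21.1% lower. These comparisons share libraries with those of the inhibitors and of the days. Whether these genes follow AP-1 in these cells was not tested.

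Heat shock genes, which rise when cells are handled or stressed, were looked at because the immediate early genes share that response. Of 6, 2 rose and 2 fell in D/KO cells at day 4, with Hspa1b at -0.76 and Hspb1 at 0.50, beside 18.3% and 18.7% of all genes. With A83-01, 3 rose and 1 fell, led by Hspa1a (1.48) and Hspa1b (1.11), beside 16.4% and 16.2%. In the D/KO control Hspa1b (-1.82) and Hspa1a (-1.34) were lower than in the WT control, the group with the highest Fos. Their part in the values of the members was not tested.

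Across the groups, the members differed in how far they ranged and in how well neighbouring groups could be told apart. In the reprogramming table the highest group mean was 11 times the lowest for Fos, 6.77 for Egr1, 6.06 for Fosb, 3.43 for Junb, 3.42 for Jund, 3.33 for Fosl2, 3.15 for Maff, 2.39 for Fosl1 and 1.51 for Jun. No ratio is given for Atf3, since its WT groups with VC rested on 3 to 10 reads a library, under the filter of 0.577 CPM. With the 12 groups of the reprogramming table in order of level, 8 of the 11 neighbouring pairs overlapped for Atf3, 9 for Egr1, Fosl2 and Junb, 10 for Fos and Jun, and all 11 for Fosb, Fosl1, Jund and Maff, so the order holds between distant groups more than between neighbours. In the inhibitor table the ratio was 13.2 for Fos, 9.26 for Fosl1 and 5.07 for Egr1, with 3, 5 and 4 of 7 neighbouring pairs overlapping. The spread between libraries of a group was widest for Fosb, with a biological coefficient of variation of 0.441 at the 90.6th percentile of all genes tested, and narrowest for Jun, at 0.0876.

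Over the 36 reprogramming libraries the levels of some members ran together. On log2 levels, Pearson's r was 0.83 between Junb and Egr1, 0.81 between Fos and Egr1 and 0.65 between Fos and Fosb, and 0.69 between Jund and Atf3. Over the 18 inhibitor libraries compared, these pairs stood at 0.69, 0.89, 0.81 and -0.35 in that order. Atf3 lay under the filter in WT reprogramming cells with VC. The most similar genes outside the members were Serping1 and Zfp36 for Fos (0.86 each), Radil (0.92) and C1ra (0.91) for Egr1, C1ra and Ier2 for Junb (0.89 each), Nab2 (0.85) for Maff, and Atp6v0a2 (0.92) for Fosl2. For Fosb, Fosl1 and Jun the best values were lower, with Pcsk6 at 0.68, Il1rap and Etv4 at 0.71, and Tspan5 at 0.71. Cmtm6 (0.88) was nearest to Jund and Lama1 (0.90) to Atf3. The libraries share groups, depth and the genotype difference, so these values describe the table and carry no p.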

How the data were processed

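The deposited values were raw counts of reads per gene, 1 table for the reprogramming libraries and 1 for the inhibitor libraries. Per the submitters' processing notes, the authors used FastQC, Trim Galore, HISAT2 and featureCounts (Subread) with GRCm39. Versions, the annotation release and the strand setting are not given in the sources used here. A gene on the other strand overlaps 7 members (Fosl1, Fosl2, Jun, Junb, Jund, Atf3 and Maff). If strand was ignored, the counts of these members may be too low or too high where exons are shared. Gene symbols came from GENCODE M39, where 56236 of 56980 identifiers were found. Groups came from the labels.

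Counts were tested with edgeR 4.0.16 (quasi-likelihood F-test, TMM, 1 fit per table, R 4.3.3, limma 3.58.1) after filterByExpr (minimum count 10, minimum total 15), with Benjamini-Hochberg adjustment over all genes tested. The fits of inhibitor and control comparisons held 18 libraries, and that of skin all 24. The SE is the log2 fold change divided by the square root of F. An exact permutation test of 3 against 3 libraries cannot go below p = 0.1, so none was used. Alternatives were DESeq2 1.42.0, DESeq2 size factors, no filter, fits of the compared groups only or of all libraries, another day 0 baseline, each library left out in turn, the short-to-long gene ratio as a covariate, and the fit without 6 D/KO libraries, the last pair chosen after seeing the data. The members and gene lists were chosen with earlier results of these data known. Outside the members, the genes named are up to 3 called genes of largest change per list and comparison with a mean of at least 1 CPM, and up to 2 most correlated genes per member. Some genes that this rule names are not reported here. The scripts were tested on simulated data.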

Additional observations from a re-analysis of the deposited data

Results flagged for a closer look

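Of the 40 tests of whether a member's change from day 0 differed between D/KO and WT cells, 10 passed an adjusted p of 0.05 in edgeR's quasi-likelihood test of the difference itself. They were 2 and 4 of 10 members at days 2 and 4 without VC and 3 and 1 with VC, where 6.54%, 14.3%, 13.9% and 29.4% of all genes passed, so the last count lay below the share of all genes. Without VC, the D/KO change exceeded the WT change by 2.05 for Fos (adjusted p = 0.00489) and 1.29 for Egr1 (adjusted p = 0.00159) at day 2. At day 4 the difference was 3.59 for Fos (adjusted p = 1.12e-06), 3.94 for Fosb (adjusted p = 0.000283), 1.47 for Egr1 (adjusted p = 0.000129) and -0.85 for Fosl2 (adjusted p = 0.000187). With VC at day 2 it was -1.20 for Fosl2 (adjusted p = 1.14e-06), -1.15 for Jund (adjusted p = 0.00128) and -1.11 for Maff (adjusted p = 0.00884). With VC at day 4 it was -1.17 for Fosl2 (adjusted p = 5.67e-07). Genotype, sex, age and line change together in these tests. No test for a single outlying sample was made in groups of 3 libraries, but each library was left out in turn.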

How the results depend on the processing

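Of the results computed for single members under another setting, 2113 kept their direction and side of the threshold, 123 passed it only under the other setting, 114 lost their call and 22 reversed, and the cause was not tested. The covariate (the ratio of counts in short to long genes) and the fit without 6 D/KO libraries were chosen after seeing the data. The number of members called moved by over 1.5 times as follows. With day 0 without VC as the baseline it was 8 instead of 4 for D/KO day 4 plus VC, 7 instead of 2 for WT day 2 plus VC and 5 instead of 3 for WT day 4 plus VC. With no filter it was 4 (main value 1) for WT day 2, 3 (1) for WT day 4, 4 (2) and 5 (3) for WT days 2 and 4 plus VC, 5 (3) and 4 (2) for D/KO day 4 against day 2 without and with VC, 3 (1) for WT with VC, 7, 8 and 5 (4, 4 and 3) for VC in WT cells at days 0, 2 and 4, and 4 (2) and 3 (1) for the genotype difference at day 2 and at day 4 plus VC. With only the groups compared it was 3 for WT day 2 and 5 for WT day 4 without and with VC. With the covariate it was 2 for WT day 4, 0 for WT day 2 plus VC, 0 and 2 for WT day 4 against day 2 without and with VC, and 2 for the genotype difference at day 4 plus VC. For DMH-1 (2) it was 1 with all 24 libraries, 4 by DESeq2, 4 with no filter, 5 with only the groups compared and 8 with the covariate. With 1 library left out it ran from 2 to 4 for D/KO day 4 plus VC, 0 to 3 for WT day 2, 0 to 4 for WT day 2 plus VC, 1 to 3 and 1 to 2 for D/KO day 4 against day 2 without and with VC, 1 to 2 and 0 to 2 for the same in WT cells, 4 to 5 for VC in D/KO cells at day 0 and 1 to 3 for DMH-1. Without the 6 D/KO libraries it was 3 instead of 7 for VC in D/KO cells at day 0. Directions that reversed with the other baseline were Fosb in D/KO cells at day 2 plus VC (1.27), Atf3 at day 4 plus VC (-0.85), and in WT cells Fosl2 (0.31), Atf3 (-2.74) and Maff (-0.56) at day 2 plus VC and Fosb (-0.63), Fosl2 (0.088) and Atf3 (-2.48) at day 4 plus VC. Both WT Atf3 values set 3 to 10 reads a library with VC, under the filter, against 36 to 54 reads at WT day 0 without VC. They show a lower level than at that baseline but are no measure of the fold. The main values compare only WT groups with VC, all under the filter, and are no measure of a fold or direction. With the covariate Junb in D/KO cells at day 4 plus VC was -0.27 and Fosl2 between the controls -0.17, and without the 6 libraries that Junb value was -0.047. With 1 library left out, values near 0 crossed it. At D/KO day 4 plus VC Fosl1 ran from -0.60 to 0.0028, Junb from -0.089 to 0.21 and Atf3 from -0.25 to 0.62. Fosb at D/KO day 2 plus VC ran from -0.84 to 0.094 and at WT day 2 plus VC from -0.43 to 0.23, and Maff at WT day 4 plus VC from -0.11 to 0.16. Where 1 library of 3 was left out, the group of 2 shared the spread of all groups. No paired analysis was possible because the labels give running serial numbers and no replicate number shared between groups. Depth limits Atf3 in WT cells with VC, where 3 to 10 reads a library stand behind its levels.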

Other observations

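The 3 WT 4F TGFB libraries entered no comparison, and their levels are given as values. Fos stood at 21.9, 13.1 and 18.9 CPM, the lowest mean of the 8 groups of the inhibitor table. Fosl1 stood at 12.9, 13.8 and 12.8 CPM and Maff at 53.3, 53.8 and 61.5 CPM, the highest means of those groups. Fosl2 took 54.9% and Fosl1 18.2% of the summed FOS family level per kilobase. Egr1 stood at 229, 97.9 and 96.5 CPM, with 1 library well above the other two.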
